A study of Mus musculus with 6 samples.

Results

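Matrix metalloproteinases and the tissue inhibitors that block them were followed through 10 genes: the gelatinases Mmp2 and Mmp9, the stromelysins Mmp3, Mmp10 and Mmp11, the collagenase Mmp13, the membrane-bound Mmp14, and the inhibitors Timp1, Timp2 and Timp3. They were picked by symbol from a list, not by a threshold on their values, and make up 10 of the 23406 named genes in the deposited tables. Mouse embryonic fibroblasts given OSKM, the usual abbreviation for the reprogramming factors Oct4, Sox2, Klf4 and c-Myc, were profiled by RNA sequencing at day 7 of reprogramming. WT cells were Adar1 Fl/Fl given vehicle (2 libraries), KO cells were Adar1 Fl/Fl given 4OHT (2 libraries), HET cells were Adar1 Fl/E861A given vehicle (1 library) and MUT cells were Adar1 Fl/E861A given 4OHT (1 library). All 4 groups share the cell type, the factors and the day, and every group, controls included, carries at least 1 floxed Adar1 allele.

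Adar1 encodes a deaminase of RNA that turns adenosine into inosine where strands pair, and E861A is an amino acid change in that enzyme. 4OHT is 4-hydroxytamoxifen, commonly used to switch on a Cre recombinase that deletes floxed DNA. The Cre line is not given in the sources used here, and there is no group of cells without floxed alleles given 4OHT, so the action of the agent itself cannot be told apart from the loss of the floxed allele. Whether libraries of a group are from separate cultures is not given in the labels. The p-values therefore set differences only against the spread of these libraries, and that spread may be technical.

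Matrix metalloproteinases are zinc enzymes that cut collagen, proteoglycans and other proteins around cells. Most are made as inactive precursors, held shut by a propeptide until another protease removes it, and TIMPs then block the active site. TIMP2 has a further role: bound to MMP14 at the cell surface, it captures the MMP2 precursor, which a neighbouring free MMP14 then cuts. Fibroblasts are a classical source of these proteases and inhibitors.

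Values were FPKM, fragment counts scaled by transcript length and library size, so that genes of different length can be compared. Their sum over all genes ran from 588991 to 664385 across the libraries, and replicates of WT and of KO each correlated across genes with a Pearson r of 0.995 on log2(FPKM + 1). Adar itself was at 19.6 and 19.5 FPKM in WT, 34.2 and 31.3 in KO, 17.0 in HET and 33.0 in MUT, a value over the whole gene that does not check a deletion of part of it. The 10 fibroblast markers summed to 3882 and 3504 FPKM in WT, 739 and 622 in KO, 4051 in HET and 1772 in MUT. Of these, 9 of 10 were lower in KO than in WT by the limma test described below. In MUT, 6 of the 10 were lower than in HET by 2-fold or more on log2(FPKM + 1), and 4 were not. Among those 4, Thy1 was at 252 FPKM in HET and 245 in MUT, and Fbn1 at 71.8 and 99.3. The 8 pluripotency markers summed to 620 and 494 FPKM in WT, 30.0 and 15.6 in KO, 622 in HET and 43.6 in MUT. They include Sox2 and Pou5f1, the gene of Oct4, which were also given to the cells as factors. Pou5f1 was at 222 and 175 FPKM in WT, 8.03 and 2.50 in KO, 272 in HET and 12.8 in MUT. RNA of the given copies cannot be told apart here from that of the cells' own genes, and its part in this sum was not tested. The 6 epithelial markers summed to between 139 and 185 FPKM in the 3 vehicle libraries and between 12.2 and 14.7 in the 3 libraries with 4OHT. These are bulk RNA values, in which fewer cells of a type and less RNA per cell cannot be told apart, and the part of any of these shifts in the results that follow was not tested.

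Differences are on the scale of log2(FPKM + 1), which understates the change of low genes. They were tested with limma across the 12266 genes at 1 FPKM or more in at least 2 of the 6 libraries, and a gene was called when its Benjamini-Hochberg adjusted p was under 0.05. Of the 10 members, 8 were tested, while Mmp9 and Mmp10 stayed under the minimum.

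In WT the inhibitor Timp2 was the most abundant member, at 765 and 719 FPKM. Mmp14, at 547 and 519 FPKM, and Mmp2, at 527.5 and 529.2 FPKM, followed it with overlapping values. Mmp3, Timp1, Timp3, the Mmp11 row and Mmp13 came next in that order with no overlap between neighbours, and Mmp10 and Mmp9 were last, both under 0.5 FPKM. In KO the order changed: Timp2 stayed first, Mmp14 and Timp1 overlapped behind it, and Timp3 came before Mmp2. Mmp2 overlapped with the Mmp11 row, Mmp3 overlapped with Mmp13, and Mmp9 and Mmp10 were again lowest. HET had Mmp2 at the top and Timp2 in the third place, while MUT ran Timp2, Mmp14, Timp1, Timp3, Mmp2. With 1 library in each, neighbours in those last orders have no spread to be set against.

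**Figure D1:**
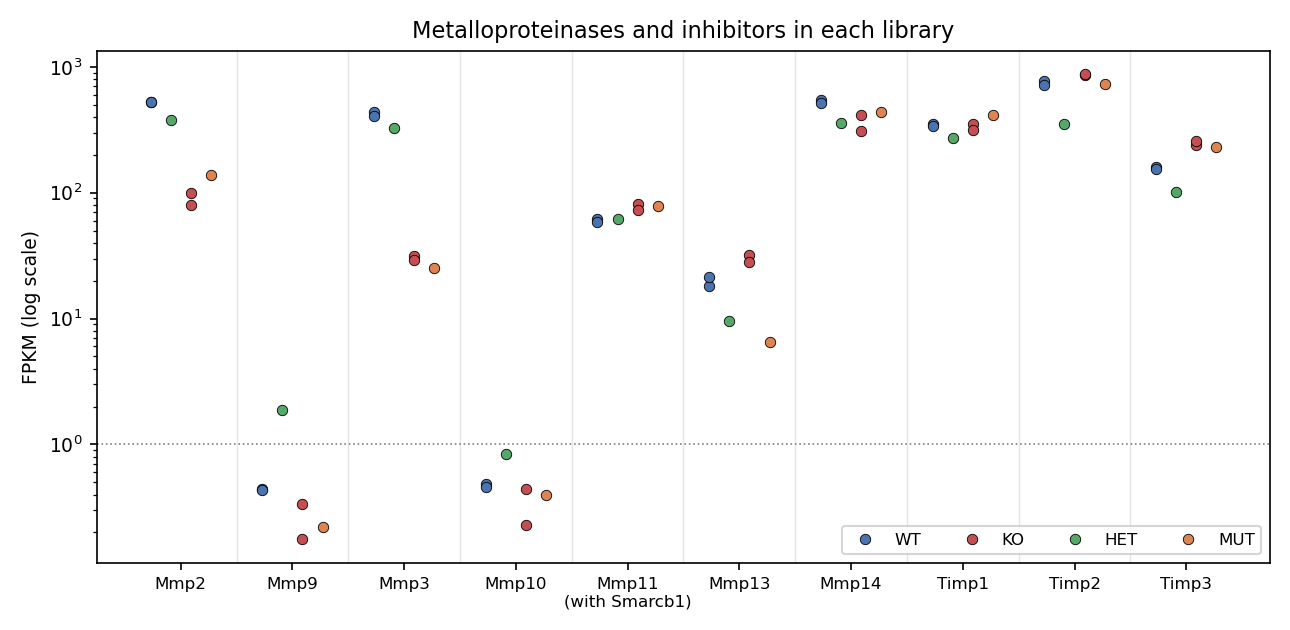
FPKM of each member in each library on a log axis, with 1 point per library (2 WT, 2 KO, 1 HET, 1 MUT) and a dotted line at 1 FPKM. Mmp2 and Mmp3 lie lower in all 3 libraries with 4OHT than in all 3 with vehicle, Timp3 lies higher, and Mmp13 separates the libraries by allele background.

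Mmp2 encodes gelatinase A, which digests denatured collagen and basement membrane collagen. The gene (ENSMUSG00000031740.8) lies on the plus strand of chromosome 8, GRCm38 chr8:92827291-92853420. Its level was 527.5 and 529.2 FPKM in WT, 98.8 and 79.4 in KO, 375 in HET and 137 in MUT. All 3 libraries with 4OHT were below all 3 with vehicle, and MUT was above both KO libraries. Mean FPKM was 528 ± 1.23 (SD, n = 2) in WT and 89.1 ± 13.8 (SD, n = 2) in KO, 5.93-fold lower, and the fall of Mmp2 was called by limma at -2.56 (SE 0.116, adjusted p = 5.67e-08). MUT was 2.74-fold below HET, with no test. The fibroblast marker sum split the libraries by treatment too, at 3504 FPKM or more with vehicle and 1772 or less with 4OHT. Its order within vehicle differed: HET, at 4051 FPKM, was above both WT libraries, while Mmp2 in HET was below both. The pluripotency and epithelial marker sums also split the libraries by treatment.

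Mmp9, gelatinase B, is best known from neutrophils and macrophages. It lies on chromosome 2 (ENSMUSG00000017737.2, plus strand, GRCm38 chr2:164940780-164955850). Its level was 0.446 and 0.432 FPKM in WT, 0.335 and 0.176 in KO, 1.89 in HET and 0.223 in MUT. HET was the only library above 1 FPKM. HET also held the highest sum of the macrophage markers counted on rows of their own (6 of 8 markers, 4 of them under 1 FPKM in every library), at 42.4 FPKM against 21.4 to 25.6 in WT, 5.19 and 5.99 in KO and 10.03 in MUT. Most of that sum was Laptm5, a lysosomal membrane protein of blood cells, at 36.7 FPKM in HET, 23.4 and 19.9 in WT, 3.31 and 2.83 in KO and 5.88 in MUT. Tyrobp, a signalling adaptor of myeloid cells, was at 4.17 FPKM in HET and at 0.918 to 2.04 elsewhere. The other 4 were low: Adgre1 (0.537 FPKM in HET, 0.862 in MUT) and Aif1 (0.231 and 0.524) were highest in MUT, and Csf1r (0.668 and 0.647) and Ptprc (0.0800 and 0.0748) were close in HET and MUT. The neutrophil markers summed to at most 1.97 FPKM in any library, and 2 of the 6 found were at 0 in all. The part of these cells in the Mmp9 value was not tested.

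Mmp3 encodes stromelysin 1, which cuts proteoglycans and fibronectin and can activate other MMP precursors. It had the widest range of all members. Its level was 441 and 404 FPKM in WT, 31.7 and 29.2 in KO, 327 in HET and 25.4 in MUT, so the 3 libraries with 4OHT stood far below the 3 with vehicle in both backgrounds. Mean FPKM was 422 ± 25.996 (SD, n = 2) in WT and 30.5 ± 1.71 (SD, n = 2) in KO, 13.9-fold lower, and limma called the fall of Mmp3 at -3.75 (SE 0.099, adjusted p = 2.83e-09). MUT was 12.9-fold below HET, with no test. The pluripotency marker sum split the libraries likewise, 494 FPKM or more with vehicle and 43.6 or less with 4OHT. So did the fibroblast sum (3504 or more, 1772 or less) and the epithelial sum (139 or more, 14.7 or less).

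Mmp10, stromelysin 2, is the closest relative of Mmp3 among the members. It was at 0.488 and 0.459 FPKM in WT, 0.231 and 0.443 in KO, 0.844 in HET and 0.3996 in MUT. It therefore lay under 1 FPKM in every library, including HET, in which Mmp3 was at 327 FPKM, and no fold is given for it.

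Mmp3, Mmp10 and Mmp13 lie in 1 cluster of 10 Mmp genes on chromosome 9, which spans 427 kb from 7272514 to 7699585 on GRCm38. Mmp13 (ENSMUSG00000050578.10, chr9:7272514-7283331), Mmp3 (ENSMUSG00000043613.8, chr9:7445822-7455975) and Mmp10 (ENSMUSG00000047562.3, chr9:7502352-7510240) are all on its plus strand. Only Mmp3 and Mmp13 exceeded 1 FPKM in any library. The other 8 genes of the cluster, among them the collagenases Mmp1a, Mmp1b and Mmp8 and the macrophage elastase Mmp12, were under 1 FPKM in all 6, and Mmp7 was listed at 0 throughout. The expressed genes of the cluster moved in opposite directions between WT and KO.

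These promoters are shown because the AP-1 element just before the start site is the classical shared regulatory feature of this cluster, bound by dimers of FOS and JUN proteins. The sequences are the last 120 bases before the RefSeq start site on GRCm38.p6, plus strand, with the AP-1 letters (TGAGTCA or TGACTCA, which are each other's reverse complement) in capitals. They cover chr9:7445702-7445821 for Mmp3, chr9:7502222-7502341 for Mmp10 and chr9:7272394-7272513 for Mmp13.
Mmp3: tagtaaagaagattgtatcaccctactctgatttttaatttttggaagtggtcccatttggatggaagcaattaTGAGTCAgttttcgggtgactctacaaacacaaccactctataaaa
Mmp10: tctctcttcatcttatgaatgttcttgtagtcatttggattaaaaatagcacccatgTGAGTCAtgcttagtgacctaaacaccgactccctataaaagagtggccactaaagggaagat
Mmp13: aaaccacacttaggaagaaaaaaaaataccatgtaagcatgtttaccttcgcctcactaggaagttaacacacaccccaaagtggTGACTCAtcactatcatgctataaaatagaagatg
The match lay at -46 to -40 in Mmp3, -63 to -57 in Mmp10 and -35 to -29 in Mmp13, counted back from the start site. In the 250 bases before the start, 3 of the 8 members found in the RefSeq promoter table held it (Mmp2 and Mmp9 were not matched), against 4.46% of 32851 promoters in the table. The PEA3 letters AGGAAG or CTTCCT, an element of ETS-family factors, occurred in Mmp3, Mmp13, Mmp14, Timp1 and Timp3, against 29.5% of the promoters. These motifs do not overlap each other in those promoters. The 3 AP-1 matches thus belong to a gene that was high and fell with 4OHT, a gene under 1 FPKM throughout, and a gene that was higher in KO than in WT. A match is a description of letters, not evidence of binding.

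Mmp13 encodes collagenase 3, a main collagenase of rodents that cuts fibrillar collagen and is abundant in cartilage and bone. Its level was 18.1 and 21.5 FPKM in WT, 31.8 and 28.3 in KO, 9.65 in HET and 6.50 in MUT. Both KO libraries were above both WT libraries, and both Fl/E861A libraries were below all 4 Fl/Fl libraries. The mean was 19.8 ± 2.43 FPKM (SD, n = 2) in WT and 30.1 ± 2.54 (SD, n = 2) in KO, 1.52-fold higher, and Mmp13 rose in KO by limma at 0.58 (SE 0.114, adjusted p = 0.00145). Beside this, the 7 chondrocyte and osteoblast markers, 4 of them under 1 FPKM in every library, summed to 33.4 and 30.3 FPKM in WT, 38.1 and 35.1 in KO, 13.9 in HET and 18.5 in MUT. Most of that sum was Col10a1, the collagen of hypertrophic cartilage, at 21.8 and 19.7 FPKM in WT, 21.5 and 20.8 in KO, 4.36 in HET and 6.17 in MUT. Col10a1 was thus also lower in both Fl/E861A libraries, as was Col2a1 (1.04 FPKM in HET and 1.59 in MUT, 3.04 and 2.49 in WT, 5.38 and 5.04 in KO). Runx2 did not follow: it was at 8.25 and 7.81 FPKM in WT, 10.6 and 9.21 in KO, 7.41 in HET and 10.2 in MUT. The part of these genes in the Mmp13 values was not tested.

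Mmp11, stromelysin 3, is activated inside the cell by furin. Its gene (ENSMUSG00000000901.17, minus strand, GRCm38 chr10:75923222-75936496) has no row of its own: it shares one with Smarcb1, a subunit of the SWI/SNF chromatin remodelling complex, and their transcripts cannot be told apart. The shared row was at 61.4 and 58.1 FPKM in WT, 80.8 and 73.3 in KO, 61.4 in HET and 78.4 in MUT. The 3 libraries with 4OHT were all above the 3 with vehicle. The rise in KO was called by limma at 0.36 (SE 0.098, adjusted p = 0.00957). It was not called without WT 2, where only the KO pair set the spread and the difference was 0.32.

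Mmp14 encodes MT1-MMP, a collagenase anchored in the cell membrane. It lies on chromosome 14 (ENSMUSG00000000957.11, plus strand, GRCm38 chr14:54431612-54445364). Its level was 547 and 519 FPKM in WT, 415 and 307 in KO, 360 in HET and 441 in MUT. The KO libraries were below the WT libraries with a wide gap between them, and HET and MUT were also below WT. The mean was 533 ± 20.3 FPKM (SD, n = 2) in WT and 361 ± 76.4 (SD, n = 2) in KO, 1.48-fold lower, and Mmp14 fell in KO by limma at -0.58 (SE 0.136, adjusted p = 0.00433). Without KO 2, where only the WT pair set the spread, the difference was -0.36. The call was lost when all genes above 0 were tested (adjusted p = 0.0877 by limma).

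Timp1, a secreted inhibitor that blocks most MMPs but acts poorly on MT1-MMP, lies on chromosome X (ENSMUSG00000001131.11, plus strand, GRCm38 chrX:20870166-20874735) inside Syn1 on the other strand. Its level was 349.6 and 341 FPKM in WT, 348.7 and 317 in KO, 274 in HET and 416 in MUT. WT and KO overlapped, MUT was the highest library and HET the lowest. KO against WT gave -0.05 (adjusted p = 0.66 by limma), and without KO 2 the sign turned to 0.014.

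Timp2, which acts both as an inhibitor and as the adaptor between MMP14 and the MMP2 precursor, lies on chromosome 11 (ENSMUSG00000017466.9, minus strand, GRCm38 chr11:118301069-118355740), where it overlaps Cep295nl on the same strand. Its level was 765 and 719 FPKM in WT, 863 and 877 in KO, 353 in HET and 733 in MUT. HET stood at less than any of the other 5 libraries, which lay between 719 and 877. Mean FPKM was 742 ± 32.8 (SD, n = 2) in WT and 870 ± 9.74 (SD, n = 2) in KO. That difference of 0.23 was not called (adjusted p = 0.0697 by limma), although it was without KO 1, where only the WT pair set the spread.

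Timp3 is held in the matrix after secretion and also inhibits ADAM17 and several ADAMTS proteases. It lies on chromosome 10 (ENSMUSG00000020044.13, plus strand, GRCm38 chr10:86300372-86349506) inside Syn3 on the other strand. Its level was 159 and 154 FPKM in WT, 241 and 256 in KO, 101 in HET and 231 in MUT. All 3 libraries with 4OHT were above all 3 with vehicle. Mean FPKM was 157 ± 3.53 (SD, n = 2) in WT and 248 ± 11.01 (SD, n = 2) in KO, 1.59-fold higher, and Timp3 rose in KO by limma at 0.66 (SE 0.095, adjusted p = 0.000178). Whether strand was used in counting is not given in the sources used here, but the host genes were low: Syn1 was at 0.523 to 1.17 FPKM and Syn3 at 0.112 to 0.252.

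Between KO and WT, 6 of the 8 tested members were called, against 57.7% of all genes tested. Mmp13, Timp3 and the Mmp11 row rose (3 of 8, background 29.5%), and Mmp2, Mmp3 and Mmp14 fell (3 of 8, background 28.2%). The median difference was 0.09 over the members and 0.02 over all genes. Of the 8, Mmp3 and Mmp2 had the largest differences. When the HET and MUT libraries were added and 4OHT was compared with vehicle with allele background as a term, 5 of 8 members were called, against 57.4% of all genes (29.2% higher, 28.2% lower). Timp3 (0.84, adjusted p = 0.000449), Timp2 (0.50, adjusted p = 0.0252) and the Mmp11 row (0.36, adjusted p = 0.00666) rose, and Mmp3 (-3.71, adjusted p = 1.96e-07) and Mmp2 (-2.19, adjusted p = 5.07e-05) fell. Mmp13 at 0.22, Mmp14 at -0.29 and Timp1 at 0.16 were not called. Timp2 was not called when WT 2 was left out (adjusted p = 0.0518) or when all genes above 0 were tested (adjusted p = 0.0716). This comparison contains the WT and KO libraries and is not independent of the first.

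**Figure D2:**
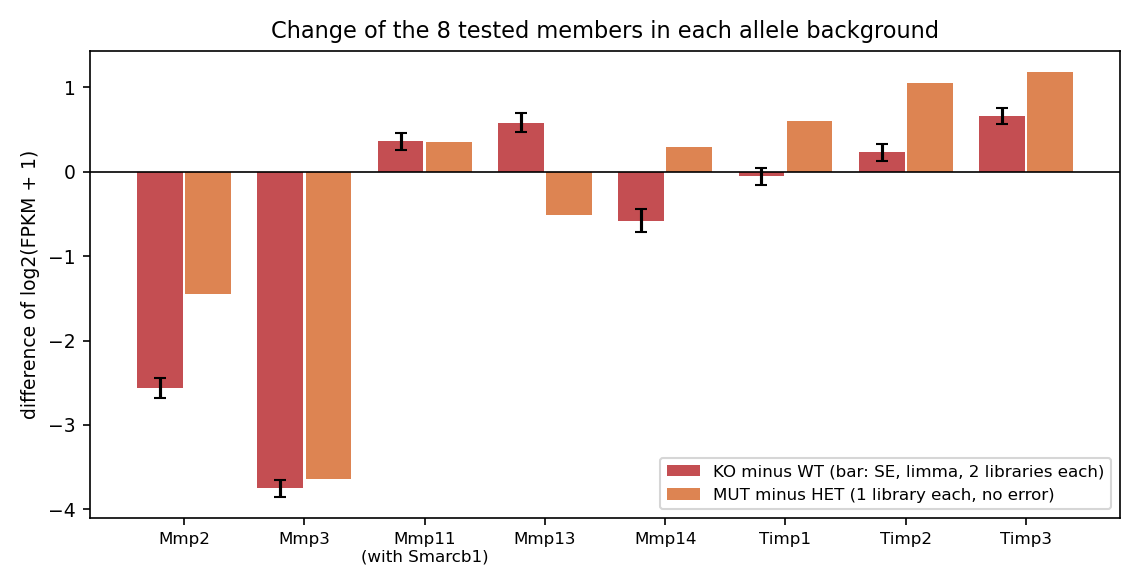
Difference of log2(FPKM + 1) for the 8 tested members, KO minus WT (2 libraries each, error bar 1 SE from limma) and MUT minus HET (1 library each, no error). Mmp3 stands near -3.7 in both backgrounds, while Mmp13, Mmp14 and Timp1 (at -0.05 in KO minus WT, not called) have opposite signs in them.

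The summed proteases and inhibitors were then set side by side, leaving out the row shared with Smarcb1. The remaining MMPs summed to 1535 and 1474 FPKM in WT, 578 and 444 in KO, 1075 in HET and 611 in MUT. The TIMPs summed to 1274 and 1214 FPKM in WT, 1452 and 1450 in KO, 728 in HET and 1380 in MUT. Protease transcripts therefore exceeded inhibitor transcripts in all 3 vehicle libraries and were exceeded by them in all 3 libraries with 4OHT.

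The ratio of MMP to TIMP transcripts was 1.21 in each WT library, 0.398 and 0.306 in KO, 1.48 in HET and 0.442 in MUT. The libraries with and without 4OHT did not overlap. The high ratio of HET came with the lowest TIMP sum of all libraries and an MMP sum below WT. For Mmp2 and its partner Timp2 the ratio was 0.690 and 0.736 in WT, 0.115 and 0.0905 in KO, 1.06 in HET and 0.187 in MUT. HET was the only library with more Mmp2 than Timp2. These ratios concern transcripts, say nothing of active enzyme, and carry no test.

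The make-up of the protease pool also differed between these libraries. Mmp14 made up 35.7% and 35.2% of MMP transcripts in WT, 33.5% in HET, 71.8% and 69.0% in KO and 72.2% in MUT. Mmp3 made up 28.7% and 27.4% in WT, 30.5% in HET, 5.48% and 6.58% in KO and 4.15% in MUT. The pool with vehicle held Mmp14, Mmp2 and Mmp3 in similar shares, and the pool with 4OHT was mostly the membrane-bound Mmp14.

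**Figure D3:**
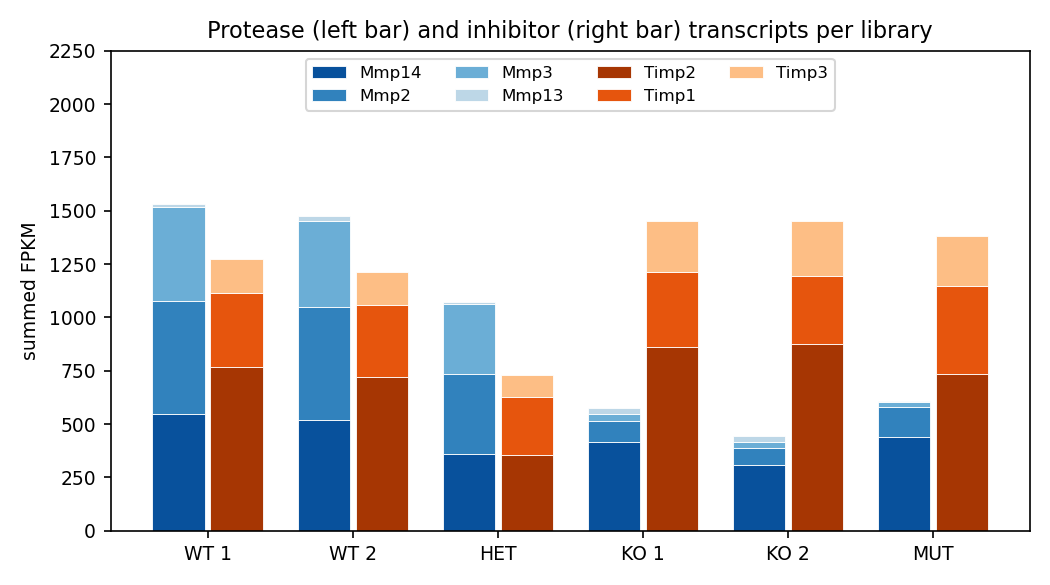
Summed FPKM of Mmp14, Mmp2, Mmp3 and Mmp13 (left bar) and of Timp2, Timp1 and Timp3 (right bar) in each library, with Mmp9 and Mmp10 too low to draw and the Mmp11 row left out. The left bar is the taller in WT and HET and the shorter in KO and MUT.

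The change on 4OHT was next compared between the backgrounds, as (MUT minus HET) minus (KO minus WT). The lone HET and MUT libraries were assumed to vary like the WT and KO pairs, which leaves 2 residual degrees of freedom. In this test 3 of 8 members were called, against 4.01% of all genes: 2 with a positive difference (background 3.07%) and 1 with a negative (background 0.946%). For Mmp2 the difference was 1.12 (SE 0.2001, adjusted p = 0.0139 by limma), from -2.56 in Fl/Fl and -1.45 in Fl/E861A. For Mmp13 it was -1.09 (SE 0.1997, adjusted p = 0.0159), from 0.58 and -0.51. For Timp2 it was 0.82 (SE 0.170, adjusted p = 0.0261), from 0.23 and 1.05.

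Mmp3 gave a difference of 0.11 (adjusted p = 0.791), the Mmp11 row -0.01 (0.982), Mmp14 0.87 (0.0743), Timp1 0.65 (0.0657) and Timp3 0.52 (0.124), none of them called. The calls shifted when 1 WT or KO library was left out. Without WT 1 or WT 2, only the KO pair set the spread, and the Mmp2 and Timp2 calls were lost. The difference was then 1.12 in both fits for Mmp2, and 0.78 without WT 1 and 0.87 without WT 2 for Timp2. Mmp14 and Timp1 were gained without KO 1 or KO 2, and Timp3 without KO 2, where only the WT pair set the spread. With all 17762 genes above 0 tested, limma called no member and no gene, with 2814 genes at an unadjusted p under 0.05. Beside these differences, 8 of the 10 fibroblast markers were called with a positive difference between the effects, median 1.06. Their part in the Mmp2 and Timp2 values was not tested.

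MUT against HET, with 1 library in each group, was described by its difference, and no test of it was run. On 2-fold or more of log2(FPKM + 1), 4 of 8 members differed, against 13.7% of all genes (4.93% higher, 8.77% lower): Mmp3 (-3.64) and Mmp2 (-1.45) lower, Timp3 (1.18) and Timp2 (1.05) higher. By the same measure 12 genes differed between the WT replicates and 16 between the KO replicates, with none of the 8 members among them.

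The backgrounds already differed under vehicle. In HET against WT, 5 of 8 members were called, all lower, against 13.9% of all genes tested (8.58% lower, 5.27% higher). Timp2 was lower by -1.07 (SE 0.120, adjusted p = 0.000321 by limma) and Mmp13 by -0.96 (adjusted p = 0.0017), 2.103-fold and 2.053-fold in FPKM. Timp3 (-0.63, adjusted p = 0.00617), Mmp14 (-0.57, adjusted p = 0.0485) and Mmp2 (-0.49, adjusted p = 0.0445) were lower by less. Mmp3 (-0.37), Timp1 (-0.33) and the Mmp11 row (0.04) were not called. The Mmp2 and Mmp14 calls were lost without WT 1 or WT 2, where only the KO pair set the spread. The Timp3 call was lost without WT 1, at -0.60. With a pseudocount of 0.1 the Mmp2 and Mmp14 calls were also lost, and with median-of-ratios scaling that of Mmp14 (adjusted p = 0.053 by limma). Mmp3 and Timp1 were gained without either KO library, where only the WT pair set the spread. With all genes above 0 tested, 2 members were called: Timp2, lower, and Mmp9, higher in HET (1.01, adjusted p = 0.0493). This rests on 1 HET library, in which 5 of the 10 fibroblast markers were higher and 1 lower than in WT.

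The backgrounds were also compared after 4OHT. In MUT against KO, 2 of 8 members were called, against 11.3% of all genes (6.6% higher, 4.72% lower). Mmp13 was lower in MUT by -2.05 (SE 0.141, adjusted p = 2.41e-05 by limma), 4.63-fold in FPKM, and Mmp2 was higher by 0.63 (adjusted p = 0.0177), 1.54-fold. Timp1 (0.32), Mmp14 (0.31), Mmp3 (-0.25), Timp2 (-0.25), Timp3 (-0.11) and the Mmp11 row (0.03) were not called. Without KO 1, where only the WT pair set the spread, Mmp14 (0.52) and Timp1 (0.39) were called. Neither Mmp13 (adjusted p = 0.0611) nor Mmp2 (0.178) was called with all genes above 0 tested. Of the fibroblast markers, 9 of 10 were higher in MUT than in KO.

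Genes whose pattern lay nearest to a member were sought for the 3 members of widest range, by root mean square distance between centred log2(FPKM + 1) profiles over the 6 libraries and 8407 candidate genes. For Mmp3 they were Tfap2c at 0.24, Nanog at 0.29 and Fgf4 at 0.31, of which Nanog is a core pluripotency factor and Fgf4 a growth factor of pluripotent cells. Nanog was at 20.8 and 15.2 FPKM in WT, 0.204 and 0.120 in KO, 17.7 in HET and 0.620 in MUT. Tfap2c (0.527 and 0.182 FPKM) and Fgf4 (0.849 and 0.614) were likewise under 1 FPKM in KO, where the added 1 shrinks the change. Mmp3 was at 31.7 and 29.2 FPKM in KO, so near profiles on this scale are not equal folds in FPKM. For Mmp2 they were Islr at 0.15, Pdgfrl at 0.17 and Gas6 at 0.18. Gas6, a secreted ligand of the TAM receptors, was at 196 and 191 FPKM in WT, 27.2 and 25.1 in KO, 104 in HET and 37.3 in MUT. For Mmp13 they were Ndnf at 0.30, Sema3a at 0.35 and Bpgm at 0.35. The distance is a description over 6 libraries that share groups and carries no p.

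The remaining genes of the system were read from 6 lists, beside which the background of 57.7% called in KO against WT applies. Of the other 16 Mmp genes and Timp4, 6 of 17 were tested, and 3 fell, 1 rose and 2 were not called. Their median difference was -0.54. Timp4, an inhibitor best known from heart, fell from 3.45 and 3.39 FPKM in WT to 0.964 and 0.686 in KO (-1.28, adjusted p = 1.49e-05). Mmp23 fell from 23.2 and 19.8 to 11.1 and 10.4 FPKM (-0.93, adjusted p = 4.01e-05), and Mmp19 from 20.4 and 19.7 to 11.01 and 12.04 (-0.75, adjusted p = 0.000106). Mmp28, epilysin, rose from 2.37 and 2.31 to 5.07 and 4.47 FPKM (0.79, adjusted p = 0.000215). The membrane-type Mmp15 (-0.33, adjusted p = 0.0582) and Mmp16 (-0.14) were not called. Without KO 1, where only the WT pair set the spread, Mmp15 was called (-0.46), and without KO 2 it was at -0.20.

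Of 11 genes that activate MMP precursors or regulate the plasmin system that does so, 9 were tested, 3 rose, 4 fell and 2 were not called, with a median of -0.09. Plaur, the urokinase receptor, rose by 1.40 (adjusted p = 9.08e-07), from 46.3 and 42.2 FPKM to 117.8 and 119.2. Serpinb2, an inhibitor of plasminogen activators, rose by 1.12, and urokinase itself, Plau, by 0.31 (adjusted p = 0.0221), a call lost without WT 1 (0.167), without KO 1 (0.0616) and with all genes above 0 (0.0556). Pcsk6 (-0.95), the protease nexin Serpine2 (-0.69), Pcsk5 (-0.57) and the tissue-type activator Plat (-0.49) fell. The convertases Furin (0.10) and Pcsk7 (-0.09) were not called. Plasminogen itself, Plg, was listed at 0 in every library.

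Of 12 genes for membrane partners and clearance, 9 were tested, 2 rose, 5 fell and 2 were not called, with a median of -0.39. Reck, a membrane-anchored inhibitor of MMPs, was at 14.1 and 15.0 FPKM in WT, 7.96 and 7.74 in KO, 11.7 in HET and 10.035 in MUT, and fell by 0.81 (adjusted p = 6.07e-05). Mrc2, a receptor that takes up cut collagen, fell by 0.69 (adjusted p = 0.00018), and Lrp1, which clears proteases and their complexes with inhibitors, by 0.49. Itgb3 (-0.82) and Cav1 (-0.39, not called without WT 2) also fell. The hyaluronan receptor Cd44 rose by 0.996 (adjusted p = 1.23e-05), from 45.9 and 47.8 to 89.6 and 99.6 FPKM, and Itgav by 0.52. Bsg, an inducer of MMPs, was at 0.22 (adjusted p = 0.0794), called without KO 1, and Tspan12 at -0.14.

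Of 24 ADAM, ADAMTS and astacin proteases, 20 were tested, of which 14 fell, 2 rose and 4 were not called. Their median difference was -0.80, against 0.02 over all genes. Adamts9 (-2.67, adjusted p = 3.97e-08), the procollagen processing enzyme Adamts2 (-2.31, adjusted p = 6.74e-08) and Adamts1 (-2.16, adjusted p = 4.54e-08) had the smallest p. Adamts1, which cuts the proteoglycans aggrecan and versican, was at 185 and 199 FPKM in WT, 42.0 and 42.4 in KO, 121 in HET and 68.4 in MUT. Adamts2 was at 19.1 and 18.9 FPKM in WT, 3.29 and 2.79 in KO, 16.6 in HET and 7.24 in MUT. The 2 that rose, named after their values were seen, were Adam9 (0.93) and the aggrecanase Adamts5 (1.18).

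Of 16 transcription factors known for control of MMP genes, 7 rose, 4 fell and 5 were not called, with a median of 0.22. Fos was at 106 and 98.8 FPKM in WT, 21.9 and 21.6 in KO, 144 in HET and 34.8 in MUT, and fell by 2.18 (adjusted p = 4.45e-08). Fosb fell by 2.56 (adjusted p = 1.02e-07). Fosl2 rose by 1.63 (adjusted p = 2.79e-07), from 29.0 and 27.7 FPKM to 91.9 and 87.5. Members of the FOS family, partners in the factor that binds the AP-1 letters printed above, thus moved in opposite directions.

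Of 15 cytokines, growth factors and receptors known to induce MMP genes, 12 were tested, 5 rose, 5 fell and 2 were not called, with a median of 0.03. Il6 rose by 2.08 (adjusted p = 1.88e-07), from 1.40 and 1.60 FPKM in WT to 9.97 and 9.18 in KO, with 1.73 in HET and 9.46 in MUT. Lif rose by 2.17 (adjusted p = 4.65e-07). Il1r1, the interleukin 1 receptor, fell by 1.55 (adjusted p = 7.02e-07), from 14.7 and 14.6 FPKM to 4.497 and 4.186.

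**Figure D4:**
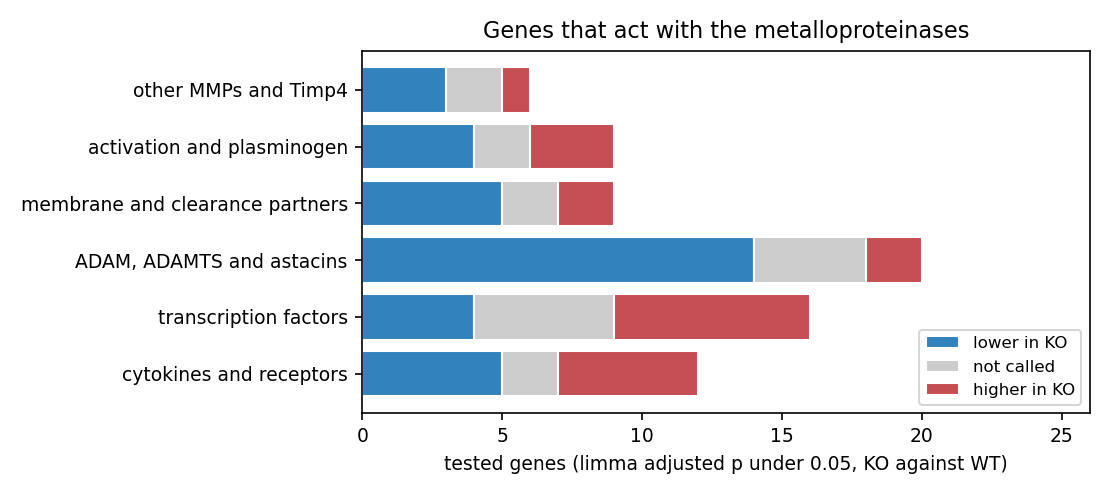
Number of tested genes in each of the 6 lists that were lower in KO, not called, or higher in KO (limma adjusted p under 0.05, KO against WT, 2 libraries each). The ADAM, ADAMTS and astacin list has 14 of 20 lower and 2 higher, and the other lists also hold calls in both directions.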

How the data were processed

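Total RNA was depleted of ribosomal RNA and sequenced, per the labels' protocols. Per the file headers, the authors deposited FPKM, a unit other than counts, with decimal commas. The submitters' processing notes name TopHat2 2.1.1, Bowtie2 2.3.0 and Cufflinks 2.2.1 and the builds GRCm38 and mm10 without roles. Neither strand use nor a scaling of the libraries is given in the sources used here. Low values showed no stable step worth 1 read, so depth is unknown and no count test was run.

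Each library has 24879 rows. Rows without a gene name (1021, 8.26% to 14.2% of FPKM) were left out, and 561 rows name several genes. A symbol on several rows took the row with the highest mean. Log2(FPKM + 1) values were tested with limma 3.58.1 in R 4.3.3 (lmFit, eBayes with trend, two-sided, Benjamini-Hochberg). KO against WT used 4 libraries. HET against WT, MUT against KO and the difference between effects used 4 group means over 6 libraries. SDs are over FPKM. The scripts were tested on simulated data. Positions are from GENCODE on GRCm38 and promoters from RefSeq on GRCm38.p6.

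The members, gene lists and markers were chosen with earlier results of these data known. Named were all 10 members, every tested gene of the first 3 lists, the 3 genes of smallest p in each other list, and the 3 nearest patterns of the 3 members of widest range. A gene of the activation list is not reported here and was left out of its counts. Alternatives were another pseudocount, no filter, median-of-ratios scaling, summed rows, each WT or KO library left out, and a replicate block. A further alternative for KO against WT fitted a mean for every group over all libraries. The lone HET and MUT libraries add nothing to the spread of that fit, which again came from the WT and KO pairs.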

Additional observations from a re-analysis of the deposited data

Results flagged for a closer look

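For 3 of the 8 tested members and 11 of the 72 tested genes of the lists, the change on 4OHT differed between the Fl/E861A and Fl/Fl backgrounds by the limma test of that difference, with 1 HET and 1 MUT library. Of all genes tested, 4.01% were called. A positive value means a higher, or less negative, change in Fl/E861A.

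Among the members the difference was 1.12 for Mmp2, -1.09 for Mmp13 and 0.82 for Timp2. Mmp2 was lower with 4OHT in both backgrounds, by less in Fl/E861A. Mmp13 rose in Fl/Fl and was lower in the lone MUT library than in HET. Timp2 was at 353 FPKM in the lone HET library and at 719 or more in every other library. Its level in MUT against KO (-0.25) was not called.

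Of the other proteases, Adamts1 differed by 1.35 (adjusted p = 0.00181), Adamts2 by 1.22 (adjusted p = 0.00644) and Mmp23 by 0.84 (adjusted p = 0.0377). The collagen receptor Mrc2 differed by 0.96 (adjusted p = 0.0135) and the plasminogen activator Plat by 0.88 (adjusted p = 0.0186). Plat was at 27.6 and 27.4 FPKM in WT, 20.1 and 18.6 in KO, 23.0 in HET and 30.5 in MUT. Plaur differed by -0.80 (adjusted p = 0.0267), at 36.5 FPKM in HET and 55.8 in MUT. Il1r1 differed by 0.92 (adjusted p = 0.0183), at 18.5 FPKM in HET and 11.6 in MUT. Lif differed by -1.13 (adjusted p = 0.0275), at 3.85 FPKM in HET and 8.97 in MUT. The other 3 list genes, outside the rule for named genes and named after their values were seen, were Adam19 at -0.78 (adjusted p = 0.0418), Cebpb at 0.96 (adjusted p = 0.0435) and Pdgfrb at 0.78 (adjusted p = 0.0406).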

How the results depend on the processing

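Depth is unknown, only WT and KO have replicates, and a lone library left in a group was assumed to vary like the others. Without KO 1 or KO 2, only the WT pair set the spread, and without WT 1 or WT 2, only the KO pair did. The exception is 4OHT against vehicle, whose spread also holds any difference of the 4OHT change between backgrounds. In HET against WT without KO 1 or KO 2, limma p-values of several members became far smaller at the same difference. Calls gained in those fits are no added support. In KO against WT, 7080 genes and 6 members were called, and 5739 to 6849 genes and 5 to 7 members with 1 library left out. In 4OHT against vehicle these were 7038 and 5, then 5899 to 6099 and 4 to 5. The difference between effects had 492 genes and 3 members, and 286 to 1192 and 1 to 6 with 1 library left out. Without a filter on low values it had 0 genes and 0 members by limma, with 2814 of 17762 genes at an unadjusted p under 0.05. HET against WT had 1699 genes and 5 members. It had 1018 to 2597 and 2 to 7 with 1 library left out, 344 and 2 without a filter, and 3 members with a pseudocount of 0.1. MUT against KO had 1389 genes and 2 members, 1303 to 2144 and 2 to 4 with 1 library left out, and 5 and 0 without a filter. The cause of these shifts was not tested.

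The changes of Mmp3, Mmp2, Mmp13 and Timp3 in KO against WT kept their calls under all 10 alternatives run. The 10 include the fit of all group means, whose spread came from the same WT and KO pairs as the main test. Signs turned only in values that were not called. With 1 library left out, KO against WT ran from -0.123 to 0.014 for Timp1, from -0.29 to 0.013 for Mmp16, from -0.011 to 0.212 for Furin and from -0.368 to 0.084 for Tspan12. For the Mmp11 row, HET against WT ran from -0.000504 to 0.0792, MUT against KO from -0.043 to 0.0965, and the difference between effects from -0.0825 to 0.057, with 0.00052 under median-of-ratios scaling.

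Replicate numbers of WT and KO share only a number: with 2 pairs, the deviations of same-numbered libraries correlated at 0.183 across genes. With the replicate number as a block, 7959 genes and 6 members were called in KO against WT, and Mmp15 was gained (adjusted p = 0.0369).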
